A study of Mus musculus with 18 samples.

Results

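Hepatokines are proteins that the liver secretes into the blood to act on other tissues. The 8 hepatokine genes described here were Fgf21, Gdf15, Angptl4, Angptl8, Angptl6, Ahsg, Fetub and Lect2, found by symbol among the 19057 genes of the deposited liver table, and all 8 were present. Each was followed across 6 groups of 3 liver RNA-seq libraries, 18 libraries in all, from male ICR mice aged 10 weeks. Con mice had a regular diet and saline. HS mice had a high-fat diet and streptozotocin (STZ), a toxin of the insulin-producing beta cells, a combination used as a model of type 2 diabetes. A10-FMT mice were HS mice given gut microbiota from donors dosed with alginate oligosaccharide (AOS) at 10 mg/kg. Con-FMT mice were HS mice given microbiota from control donors. The labels hold 2 further groups, A10, dosed with AOS at 10 mg/kg, and HS+A10, with high-fat diet, STZ and AOS at 10 mg/kg, whose husbandry is not given in the sources used here. ICR is an outbred stock, and donor material was small intestinal content pooled within a donor group. The sources used here do not say whether a library came from a single mouse, nor whether the mice had fasted, so p-values measure the spread between these libraries.

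FGF21 is a fasting- and stress-induced hormone that signals through an FGF receptor with the co-receptor beta-klotho. Its liver gene is switched on by PPAR alpha, the fatty acid sensor, and by the ATF4 arm of the integrated stress response. GDF15 is a stress cytokine that acts through the brainstem receptor GFRAL, and its gene is a known target of p53 and of ATF4. Of the angiopoietin-like proteins, ANGPTL4 inhibits lipoprotein lipase and is a PPAR target induced by fasting, ANGPTL8 is induced by feeding and insulin, and ANGPTL6 has been studied as a regulator of energy expenditure. Fetuin-A, from Ahsg, binds the insulin receptor and calcium phosphate, and fetuin-B, from Fetub, protects the egg coat from premature hardening. LECT2 attracts leukocytes and binds the MET receptor.

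RefSeq promoters on GRCm38.p6, from 250 bases before to 50 after the start, were held for 7 of the 8 genes, and 7 motifs were searched on both strands. The sequences of Fgf21 and Angptl8 are shown because both held TGATGCAAT, a match to TGATGNAAN, the C/EBP-ATF response element. It began 140 bases before the Fgf21 start on the opposite strand and 130 bases before the Angptl8 start on the gene's strand, and 3.95% of all 32851 promoters held this motif. The Fgf21 promoter also held CACGTG, an E-box of the kind bound by ChREBP and other factors, 50 bases before the start (7.15% of all promoters). The Gdf15 sequence is shown because it held AGGTCAGAGGCCA, a match to the direct repeat DR1 bound by PPAR with RXR, 55 bases before the start (0.381% of all promoters). Another Gdf15 promoter (chr8:70632096-70632345) held CACGTG 83 bases before its start and no DR1. No held promoter of another member matched DR1. The p53 half-site RRRCWWGYYY matched in Angptl8 and Fetub (8.36% of all promoters) but not in Gdf15. Matches to TATA and CCAAT boxes are not listed here. A match describes letters only and shows no binding. In the sequences, which give the 250 bases before the start, 5′ to 3′ on the gene's strand, capitals mark the C/EBP-ATF, E-box and DR1 matches.
Fgf21, chr7:45615491-45615740, minus strand: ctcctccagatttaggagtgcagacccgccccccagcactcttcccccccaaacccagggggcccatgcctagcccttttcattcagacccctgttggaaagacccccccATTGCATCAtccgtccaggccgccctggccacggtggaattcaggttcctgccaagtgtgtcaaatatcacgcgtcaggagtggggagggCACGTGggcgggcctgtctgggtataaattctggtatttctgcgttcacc
Angptl8, chr9:21835260-21835509, plus strand: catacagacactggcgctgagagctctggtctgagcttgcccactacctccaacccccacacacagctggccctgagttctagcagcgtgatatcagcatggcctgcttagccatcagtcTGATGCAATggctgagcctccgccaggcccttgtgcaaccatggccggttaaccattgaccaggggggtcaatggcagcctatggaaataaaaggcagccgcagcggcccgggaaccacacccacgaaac
Gdf15, chr8:70632457-70632706, minus strand: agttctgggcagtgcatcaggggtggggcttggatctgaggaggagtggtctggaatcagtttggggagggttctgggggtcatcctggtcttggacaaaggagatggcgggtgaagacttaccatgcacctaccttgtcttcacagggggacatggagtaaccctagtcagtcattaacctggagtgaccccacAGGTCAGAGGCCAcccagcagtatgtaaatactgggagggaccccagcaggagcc

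The genes lay on 6 chromosomes (GRCm38). Fgf21 lay on chromosome 7 (45613886 to 45615490, 3 exons) and Angptl4 on chromosome 17 (33773750 to 33781830, 7 exons). Angptl6 and Angptl8 both lay on chromosome 9, at 20873808 to 20879727 and at 21835510 to 21837347. Ahsg (22891277 to 22899449) and Fetub (22918334 to 22939778) were neighbours on chromosome 16, 18884 bases apart and on the same strand. Gdf15 lay on chromosome 8 (70629393 to 70632456) and Lect2 on chromosome 13 (56542464 to 56548502). Angptl6 shared 265 of its 1582 exonic bases with A230050P20Rik on the other strand, and without strand information the reads of these overlapping genes cannot be told apart. Angptl8 lay within the Dock6 locus but shared 0 exonic bases with it, and Ahsg shared 62 with an antisense gene.

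Values are RPKM, read numbers scaled to gene length and to the mapped reads of the library, so levels can be set beside each other between genes. From the spacing of low values in 861 genes, library sizes were estimated at about 13590000 to 14650000 reads. In all 18 libraries the 8 hepatocyte markers were detected, with sums of 38137 to 57894 RPKM. Con replicate 3 and A10 replicate 3 stood apart from other libraries, because they lay between the other libraries of their group for 98.6% of 140 and 96.3% of 135 genes that were at least 2-fold apart in those (54.9% to 74.6% for the 12 libraries of the other groups). Whether these are independent samples was not tested, and counts are given without them below. Con-FMT replicate 3 held pancreatic acinar mRNAs, with a sum over 12 marker genes of 22811 RPKM against 14.1 to 50.4 in the other 17 libraries. Values were used as deposited. Scaling each library to the same median moved the number of genes called higher from 1618 of 1809 to 398 of 884 in HS versus Con, from 213 of 2358 to 639 of 1155 in A10-FMT versus HS, from 470 of 2413 to 858 of 2098 in Con-FMT versus HS, from 686 of 1914 to 1302 of 2260 in A10-FMT versus Con-FMT, from 301 of 747 to 579 of 935 in HS+A10 versus HS and from 1388 of 2131 to 1243 of 2394 in HS+A10 versus A10. Over all 10204 genes tested, log2 changes had a median of 0.14 in HS versus Con, -0.16 in A10-FMT versus HS and -0.12 in Con-FMT versus HS, and members' changes are to be read against it.

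The plot of the 8 genes by library shows their levels. Ahsg was the most abundant member, at a mean of 5968 RPKM over the 18 libraries and rank 17 of the 19057 genes. Fetub (465 RPKM), Lect2 (100 RPKM), Angptl4 (51.95 RPKM) and Angptl8 (42.9 RPKM) followed. Angptl6 (7.47 RPKM), Gdf15 (6.86 RPKM) and Fgf21 (2.97 RPKM) were low. The least abundant members varied most between libraries, 17.8-fold for Fgf21 and 12.01-fold for Gdf15 against 1.64-fold for Ahsg and 1.55-fold for Fetub. A moderated F test over the 6 groups called 6 of the 8 genes at an adjusted p under 0.05, all but Fgf21 and Ahsg, where 56.1% of all tested genes were called.

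**Figure D1:**
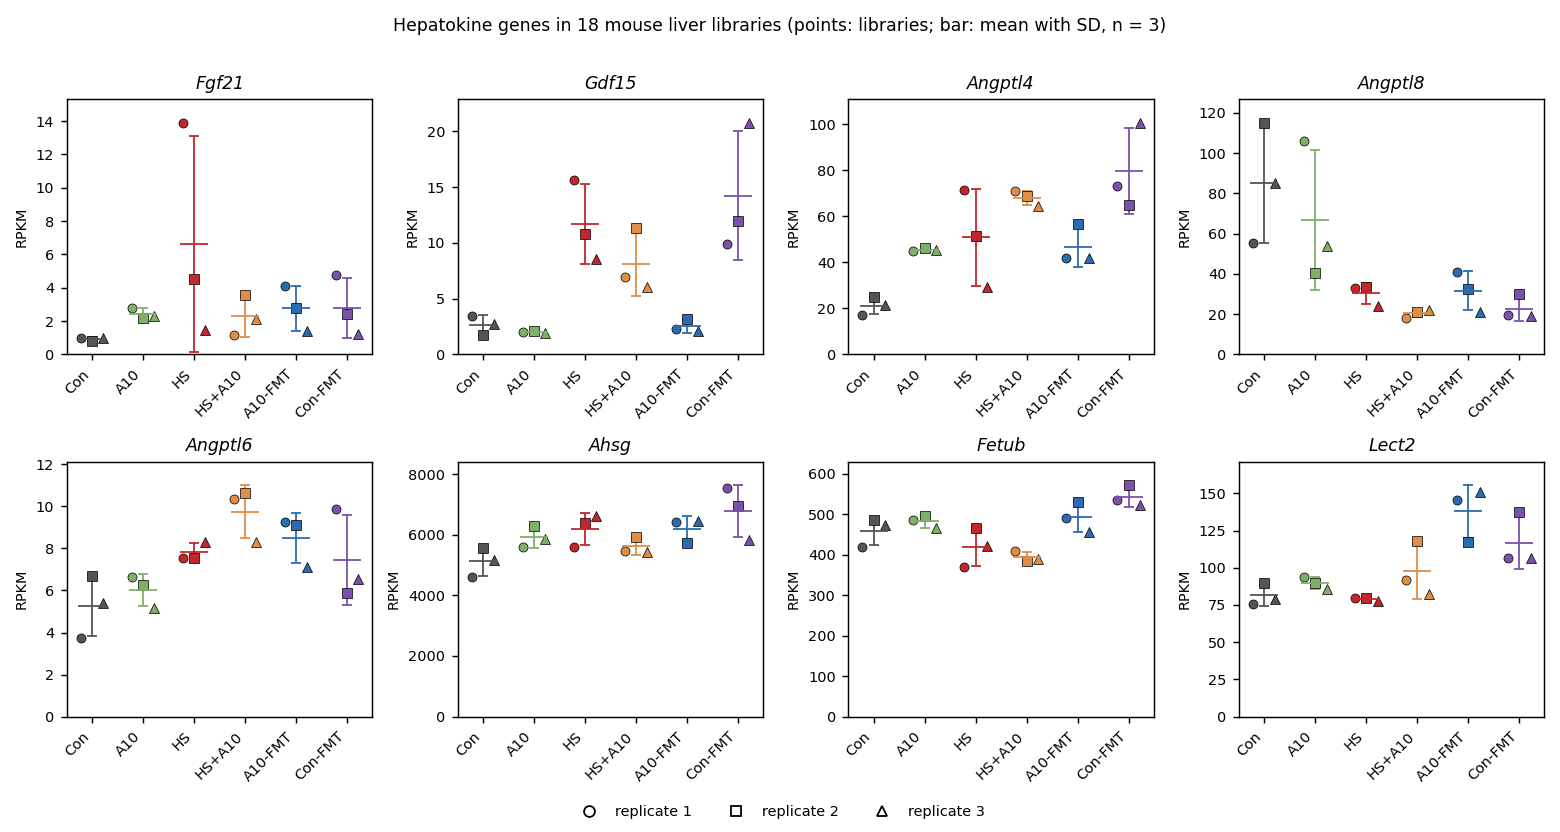
RPKM of each gene (y axis, from 0) in every library of the 6 groups (x axis), with the group mean and SD as bars and the replicate number as the symbol. Gdf15 lay between 8.60 and 20.78 RPKM in the HS and Con-FMT libraries and between 1.73 and 3.47 RPKM in the Con, A10 and A10-FMT libraries.

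Gdf15, the stress cytokine, had the smallest p of the 8 genes over the 6 groups (limma F test, adjusted p = 2.28e-05). It read 3.47, 1.73 and 2.75 RPKM in Con, and 15.68, 10.80 and 8.60 RPKM in HS. It read 2.27, 3.16 and 2.12 RPKM in A10-FMT, and 9.92, 11.99 and 20.78 RPKM in Con-FMT. All HS and Con-FMT libraries lay above all Con and A10-FMT libraries, and A10-FMT overlapped Con. Gdf15 was 4.41-fold higher in HS than in Con as a ratio of means (log2 change 1.79 ± 0.27 SE, adjusted p = 8.34e-04). It was lower in A10-FMT than in HS (log2 change -1.83 ± 0.27, adjusted p = 7.13e-04), and mean RPKM differed by -78.5%. The direct comparison of the transplants gave -2.06 ± 0.27 for A10-FMT against Con-FMT (adjusted p = 1.69e-04), and -1.77 without Con-FMT replicate 3 (adjusted p = 6.08e-04). Con-FMT against HS gave 0.24 with a 95% interval of -0.33 to 0.81 (adjusted p = 0.555), and leaving out Con-FMT replicate 3 turned it to -0.05.

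The groups with AOS but no transplant showed the same split by diet and STZ. Gdf15 read 1.99, 2.06 and 1.88 RPKM in A10, and 6.97, 11.34 and 6.02 RPKM in HS+A10. No library of HS+A10 reached down to A10, and the change was 1.57 ± 0.27 (adjusted p = 0.00103). HS+A10 overlapped HS, with a change of -0.48 and a 95% interval of -1.05 to 0.08 (adjusted p = 0.280). The 4 called Gdf15 comparisons stayed past the threshold under each of their 28 or 29 alternatives, with adjusted p between 1.09e-04 and 0.0130. The lowest Gdf15 value stood for about 37 reads.

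Fgf21 rose in HS with a wide spread. It read 0.98, 0.78 and 1.00 RPKM in Con, and 13.91, 4.51 and 1.45 RPKM in HS. Every HS library lay above every Con library, but HS replicate 1 was far above HS replicate 3. The log2 change of RPKM + 1 was 1.61 ± 0.50 (adjusted p = 0.0365). The call was lost in 12 of 28 alternatives, among them each fit without a Con library, without HS replicate 2 (adjusted p = 0.0757) and without HS replicate 1, which gave 0.94 (adjusted p = 0.129). Without Con and A10 replicate 3 it was 1.64 (adjusted p = 0.104).

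In the other groups Fgf21 lay between Con and the highest HS library. It read 2.81, 2.2 and 2.29 RPKM in A10, and 1.15, 3.55 and 2.14 RPKM in HS+A10. It read 4.13, 2.79 and 1.42 RPKM in A10-FMT, and 4.75, 2.42 and 1.21 RPKM in Con-FMT. The 3 A10 libraries lay above the 3 Con libraries without overlap, and the change of 0.84 ± 0.50 missed the threshold (adjusted p = 0.478). A10-FMT against HS gave -0.70 (95% interval -1.76 to 0.36), Con-FMT against HS gave -0.74 (-1.79 to 0.32) and HS+A10 against HS gave -0.90 (-1.96 to 0.15), none past the threshold, and HS libraries are shared by all of these. They turned on single HS libraries. Without HS replicate 1 they were -0.03, -0.06 and -0.23, and without HS replicate 3 they were -1.33, -1.37 and -1.53, of which Con-FMT against HS was then called (adjusted p = 0.0415). Without Con-FMT replicate 3, Con-FMT against HS gave -0.40. The interaction of AOS with diet and STZ was -1.74 ± 0.70 and missed the threshold (limma, unadjusted p = 0.0253, adjusted p = 0.315), with values from -2.37 (without HS replicate 3) to -1.07 (without HS replicate 1) when a library was left out. The smallest Fgf21 value stood for about 10 reads, and 1 RPKM of Fgf21 for about 13.3 reads.

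Among the angiopoietin-like genes, Angptl4 rose and Angptl8 fell in HS. Angptl4, the lipoprotein lipase inhibitor, read 17.31, 25.04 and 21.28 RPKM in Con, and 71.54, 51.55 and 29.17 RPKM in HS. It read 41.64, 56.74 and 41.83 RPKM in A10-FMT, and 73.30, 64.71 and 100.59 RPKM in Con-FMT. All libraries outside Con lay above all Con libraries. HS against Con gave 1.15 ± 0.24 (adjusted p = 0.00670), lost only when the fit held the 6 libraries of these groups alone (adjusted p = 0.0619). A10-FMT against HS gave -0.04 (95% interval -0.56 to 0.47), with overlapping libraries, a difference whose sign turned under median scaling (0.15), under quantile normalization (0.12) and without HS replicate 1 (0.25).

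Con-FMT had the highest Angptl4 mean, 79.5 ± 18.7 RPKM (SD, n = 3). Against HS the change was 0.70 ± 0.24 (adjusted p = 0.0470), with the highest HS library above the lowest Con-FMT library. A10-FMT was lower than Con-FMT by 0.74 ± 0.24 without overlap (log2 change -0.74, adjusted p = 0.0433). Each of these calls was lost in 20 of 29 alternatives, including those without Con-FMT replicate 3, the library with acinar mRNAs (0.52, adjusted p = 0.158, and -0.56, adjusted p = 0.154). Leaving out HS replicate 3 lowered the first to 0.36 (adjusted p = 0.213), and other left-out libraries that ended a call, Con replicate 3, the 3 A10, the 3 HS+A10, HS replicate 2, Con-FMT replicate 1, and A10-FMT replicates 1 and 3, gave adjusted p between 0.0516 and 0.119.

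Angptl4 was also high in the groups with AOS. It read 45.08, 46.09 and 45.34 RPKM in A10, and 70.79, 68.58 and 64.60 RPKM in HS+A10. The A10 libraries lay above Con without overlap, with a log2 change of 1.08 ± 0.24 (SE) that missed the threshold over all genes (unadjusted p = 4.39e-04, adjusted p = 0.101). In this comparison limma called 0 members and 7 of all tested genes (0.0686%), 3 members had groups that did not overlap (24.8% of all genes), and 1 member and 1418 genes had an unadjusted p under 0.05. In the fit of the 6 Con and A10 libraries alone, 2 members were called, Angptl4 and Fgf21 (adjusted p = 0.0190 for each). That fit called 40 of all its tested genes. The smallest exact permutation p of 3 libraries against 3 is 0.1, which Angptl4, Fgf21 and Ahsg reached here.

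Angptl8, the feeding-induced gene, moved the other way. It read 55.48, 115.19 and 85.21 RPKM in Con, and 33.08, 33.66 and 24.11 RPKM in HS. It read 106.03, 40.31 and 53.84 RPKM in A10, and 18.07, 21.31 and 21.96 RPKM in HS+A10. In both pairs of groups the libraries with diet and STZ lay below those without, and the means differed by -64.5% (log2 change -1.42 ± 0.33, adjusted p = 0.0102) and -69.4% (-1.54 ± 0.33, adjusted p = 0.00395). The interaction was -0.13 with a 95% interval of -1.11 to 0.86. Without Con, A10 and Con-FMT replicate 3, HS against Con gave -1.39 (adjusted p = 0.0525).

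Angptl8 overlapped HS after both transplants. It read 40.72, 32.70 and 21.32 RPKM in A10-FMT, and 19.54, 29.88 and 18.92 RPKM in Con-FMT. Of these 6 libraries, 4 lay outside the HS range, on either side of it, and the changes were 0.03 (95% interval -0.67 to 0.72) and -0.41 (-1.10 to 0.28). Over the 12 libraries with diet and STZ, Angptl8 lay between 18.1 and 40.7 RPKM, with a median of 23.0 RPKM, against 40.3 to 115 RPKM and a median of 70.3 RPKM in the 6 without. Angptl4 and Angptl8 are also adipose genes, and the 5 adipocyte markers summed to 0 to 0.6 RPKM outside Con-FMT replicate 3 (3.01 RPKM).

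Angptl6 changed less. It read 3.76, 6.68 and 5.41 RPKM in Con, and 7.56, 7.54 and 8.33 RPKM in HS. The HS libraries lay above Con, with a change of 0.51 ± 0.18 that missed the threshold (adjusted p = 0.0574) and passed it without Con replicate 2 (0.67, adjusted p = 0.0264), Con-FMT replicate 1 (adjusted p = 0.0344) or Con-FMT replicate 2 (adjusted p = 0.0486). It read 6.63, 6.26 and 5.15 RPKM in A10, and 10.34, 10.63 and 8.30 RPKM in HS+A10. HS+A10 lay above A10 without overlap (0.62 ± 0.18, adjusted p = 0.0234), a call lost in 7 of 28 alternatives, among them those without A10 replicate 2 or 3 and without HS+A10 replicate 1 or 2 (adjusted p between 0.0534 and 0.0980). Angptl6 lay between 7.13 and 9.24 RPKM in A10-FMT and between 5.90 and 9.87 RPKM in Con-FMT, and both overlapped HS.

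The fetuin genes, members of the cystatin superfamily, were abundant and had the smallest fold ranges of the 8 genes. Ahsg lay between 4604 and 7541 RPKM over the 18 libraries. HS was above Con by 0.27 ± 0.11 (adjusted p = 0.0962), a change that passed the threshold after quantile normalization (adjusted p = 0.0332). No other Ahsg comparison had an adjusted p under 0.05. Fetub read 369.89, 467.16 and 422.72 RPKM in HS, and 534.08, 572.76 and 523.26 RPKM in Con-FMT. It was higher in Con-FMT by 29.4% in the mean (log2 change 0.38 ± 0.09, adjusted p = 0.00904), without overlap, a call lost in the fit of these groups alone (adjusted p = 0.0867) and kept without Con-FMT replicate 3 (0.40, adjusted p = 0.0146).

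Fetub differed less in the other comparisons. It read 491.53, 530.05 and 455.75 RPKM in A10-FMT, which overlapped HS, and the change of 0.23 ± 0.09 (adjusted p = 0.0774) passed the threshold when libraries were scaled to the same median (0.43, adjusted p = 0.00840), after quantile normalization (adjusted p = 0.0213) and without HS replicate 2 (adjusted p = 0.0432). It read 486.77, 496.30 and 465.18 RPKM in A10, and 408.84, 385.60 and 388.44 RPKM in HS+A10. HS+A10 was lower than A10 without overlap (-0.29 ± 0.09, adjusted p = 0.0360), a call lost when any of these 6 libraries was left out (adjusted p between 0.0622 and 0.111). Con, at 418.65, 485.27 and 473.04 RPKM, overlapped HS, and only under median scaling was HS against Con called (-0.32, adjusted p = 0.0375).

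Lect2, the leukocyte chemotaxin, was higher after both transplants. It read 75.73, 89.43 and 79.07 RPKM in Con, and 79.52, 79.60 and 77.88 RPKM in HS. It read 145.25, 117.60 and 150.83 RPKM in A10-FMT, and 106.65, 137.67 and 106.40 RPKM in Con-FMT. Every transplant library lay above every HS and Con library. A10-FMT exceeded HS by 0.79 ± 0.13 (adjusted p = 0.00149) and Con-FMT exceeded it by 0.55 ± 0.13 (adjusted p = 0.00814), and both held under all 29 alternatives, Con-FMT with 0.61 without its replicate 3 (adjusted p = 0.00972). A10-FMT exceeded Con-FMT by 0.24 with a 95% interval of -0.04 to 0.52 (adjusted p = 0.227). Lect2 read 93.89, 89.71 and 85.81 RPKM in A10 and 92.00, 118.21 and 82.66 RPKM in HS+A10, and HS against Con gave -0.04 (-0.32 to 0.24).

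**Figure D2:**
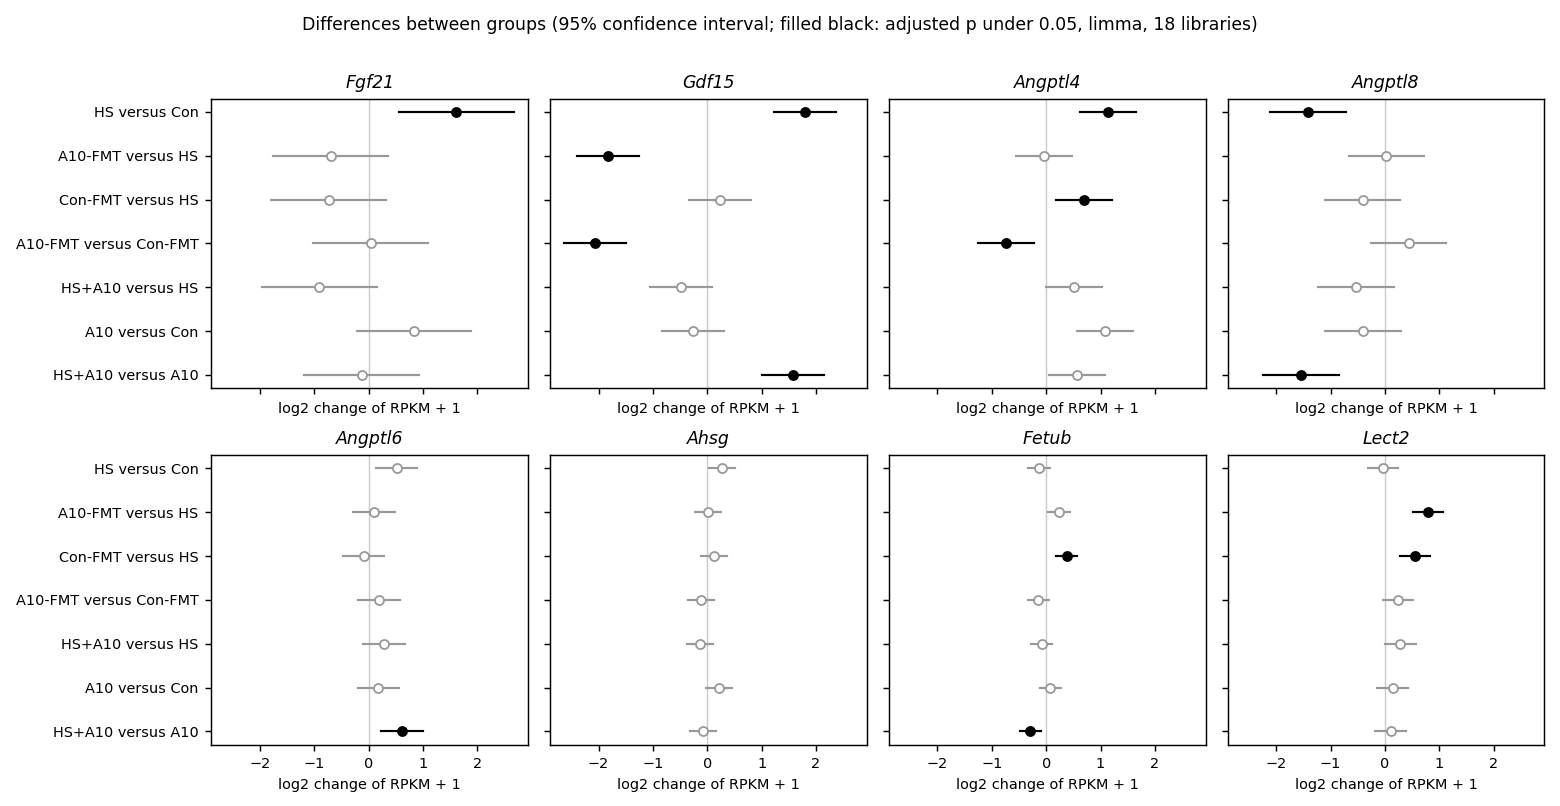
log2 change of RPKM + 1 (x axis) with its 95% interval for the 8 genes in the 7 comparisons (y axis), filled black where the adjusted p was under 0.05 in the fit of all 18 libraries. Gdf15 moved by 1.79 in HS versus Con, by -1.83 in A10-FMT versus HS and by 0.24 in Con-FMT versus HS.

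Read by comparison, HS versus Con called 4 of the 8 genes, Fgf21, Angptl4 and Gdf15 higher and Angptl8 lower, where 17.7% of all tested genes were called (1618 higher and 191 lower). In 6 members the HS and Con libraries did not overlap, as in 36.8% of all genes. Without Con and A10 replicate 3 it called 3 members, without Fgf21, and without Con-FMT replicate 3 as well it called 2, Angptl4 and Gdf15. Over all genes these fits called 700 and 722. Hemoglobin and other erythroid transcripts (5 markers) summed to 2886 to 10041 RPKM in HS against 1256 to 1972 RPKM in Con, stellate markers (6) to 10.9 to 24.5 RPKM against 8.24 to 9.48 RPKM, and T and B cell markers (5) to 0.78 to 1.14 RPKM against 1.40 to 1.74 RPKM. All markers of these lists were detected, but not all followed the sums. Hba-a1, the largest part of the erythroid sum, read 2598 to 7770 RPKM in HS against 894 to 1854 in Con. Alas2 overlapped, at 78.9 to 125 RPKM against 114 to 121. The part of these markers in these results was not tested. In bulk liver, fewer cells of a type and less RNA per cell cannot be told apart.

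A10-FMT versus HS called 2 members, Gdf15 lower and Lect2 higher, where 23.1% of all genes were called (213 higher and 2145 lower). The groups did not overlap in these 2 members, as in 37.4% of all genes. Kupffer and macrophage markers (7 of 7 detected) summed to 44.9 to 56.9 RPKM in A10-FMT against 67.0 to 112 RPKM in HS. Erythroid markers (5 of 5 detected) summed to 1135 to 2049 RPKM against 2886 to 10041 RPKM. Endothelial markers (6 of 6 detected) summed to 30.2 to 40.9 RPKM against 42.0 to 48.0 RPKM. Hepatocyte markers (8 of 8 detected) summed to 44177 to 55058 RPKM against 38801 to 43975 RPKM. Not all markers followed these sums. Among hepatocyte markers Ttr and Cyp2e1 were higher without overlap, Apob and Cps1 lower without overlap, and the others overlapped. Endothelial Stab2 read 5.41 to 7.1 RPKM against 4.54 to 5.5 RPKM, Kdr overlapped, and the others were lower without overlap. Csf1r, Vsig4 and erythroid Alas2, Hbb-bs and Hba-a2 overlapped. The part of these markers in these changes was not tested. Con-FMT versus HS called 3, Angptl4, Fetub and Lect2, all higher, where 23.6% of all genes were called (470 higher and 1943 lower). The groups did not overlap in 2 members, Fetub and Lect2, as in 35.0% of all genes, and these 2 were called without Con and A10 replicate 3, with or without Con-FMT replicate 3. Over all genes those fits called 1979 with Con-FMT replicate 3 and 1731 without it. A10-FMT versus Con-FMT called 2, Gdf15 and Angptl4, both lower, where 18.8% of all genes were called (686 higher and 1228 lower). The groups did not overlap in these 2, as in 31.5% of all genes. Only Gdf15 was called without Con and A10 replicate 3 (1479 of all genes), and without Con-FMT replicate 3 as well (1190 of all genes).

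HS+A10 versus A10 called 4, Gdf15 and Angptl6 higher and Angptl8 and Fetub lower, where 20.9% of all genes were called (1388 higher and 743 lower). The groups did not overlap in 5 members, the fifth being Angptl4 (0.57, adjusted p = 0.112), as in 43.0% of all genes. Angptl4 was called in the fit of these groups alone (adjusted p = 0.00150), which called 5 members and 2465 of all genes, and without HS replicate 3 (adjusted p = 0.0308). Without Con and A10 replicate 3 only Gdf15 and Angptl8 were called, beside 1164 of all genes. HS+A10 versus HS called 0 of 8 in limma (7.32% of all genes), with 1 member, Lect2, and 2544 genes at an unadjusted p under 0.05. Lect2 and Angptl8 were the 2 members whose groups did not overlap there (27.4% of all genes), with changes of 0.29 (adjusted p = 0.193) and -0.53 (adjusted p = 0.334). The interaction of AOS with diet and STZ called 0 of 8 in limma (0.00980% of all genes), with 2 members, Fgf21 and Ahsg, and 1320 genes at an unadjusted p under 0.05.

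Known partners of these proteins were read next. Of 7 tested genes for receptors and co-receptors of the members, 2 were higher in HS than in Con and 0 lower. Of all tested genes 15.9% were called higher in HS than in Con and 1.87% lower. The HS versus Con counts of the lists below are to be read against these shares. Genes named from the lists, fixed partners aside, were picked by their change in HS versus Con. Their comparisons with HS share the HS libraries, so changes back from HS were favoured in advance. Klb, which encodes beta-klotho, rose by 0.51 ± 0.14 (adjusted p = 0.0226), from 4.43 ± 1.18 to 6.63 ± 0.34 RPKM (SD, n = 3). Fgfr2 rose by 0.38 (adjusted p = 0.0219). Fgfr4, the main FGF receptor of hepatocytes, gave -0.08 in that comparison (adjusted p = 0.648), and Insr, the insulin receptor, gave 0.10 (adjusted p = 0.474), a value whose sign turned under median and quantile scaling.

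Among lipases and partners of the ANGPTL proteins, values are given for Apoc2 and Lpl. Apoc2, the activator of lipoprotein lipase, rose by 1.18 (adjusted p = 0.00249). Lpl, the lipase that ANGPTL4 inhibits, gave -0.35 in HS against Con (adjusted p = 0.164) and was lower than HS after both transplants, by -1.06 in A10-FMT (adjusted p = 0.00128) and -0.69 in Con-FMT (adjusted p = 0.0106). Of 3 cystatin relatives of the fetuins, Hrg (0.44, adjusted p = 0.0131) and Kng2 (0.32, adjusted p = 0.0318) rose. The alternatives were also run on HS versus Con for all named genes other than members. Of these checks 1054 kept the result, 125 lost the call and 2 turned the sign. Rises as small as these are to be read with the shift that median scaling made over all genes.

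Of 15 other secreted liver signals, 2 rose and 2 fell in HS, where 15.9% of all genes were called higher and 1.87% lower. Serpina12, the gene of vaspin, fell by 1.75 (log2 change -1.75, adjusted p = 0.00215) and was higher again than HS by 1.78 in A10-FMT (adjusted p = 0.00176) and 1.79 in Con-FMT (adjusted p = 9.63e-04). Inhba, an activin subunit, gave -0.80 (adjusted p = 0.0138). Selenop, the selenium carrier, gave 0.58 (adjusted p = 0.00260) and Rbp4, the retinol carrier, gave 0.44 (adjusted p = 0.0208).

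The regulators of these genes moved in several directions in HS. Of 13 regulators of Fgf21 and Angptl4, 3 rose and 2 fell. Nr1d1, a clock repressor, rose by 2.71 (adjusted p = 3.73e-04), Creb3l3, a hepatocyte activator of Fgf21, by 0.56 (adjusted p = 0.00845), while Ppard (-2.11, adjusted p = 1.48e-05) and Mlxipl, which encodes ChREBP (-0.77, adjusted p = 0.00334), fell. Nr1d1 was also called in A10 against Con (2.45, adjusted p = 0.0160), and the hour of sampling is not given in the sources used here. Ppara itself gave 0.24 in HS against Con (adjusted p = 0.447), and it was higher than HS in A10-FMT (0.70, adjusted p = 0.0283) and in HS+A10 (1.07, adjusted p = 0.0106).

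PPAR alpha targets rose most broadly in HS. Of 19 tested targets, Angptl4 and Fgf21 left out, 14 rose and 0 fell (median log2 change 0.82 against 0.14 over all genes), with Cyp4a14 at 5.41 (adjusted p = 0.00180), Cyp4a10 at 5.20 (adjusted p = 9.64e-04), Vnn1 at 2.34 (adjusted p = 0.0186) and Cidec at 1.34 (adjusted p = 0.0110). The count was 8 with libraries scaled to the same median, 7 without HS replicate 1 and 6 without Con and A10 replicate 3. In HS+A10, 11 of the 19 were higher than in HS (median 0.89 against -0.03, and 5 called without the 3 doubted libraries), beside 301 of all 10204 genes. Against A10, 16 were higher and 1 lower in HS+A10, beside 1388 and 743 of all genes. After transplantation 5 of the 19 targets in A10-FMT, and 6 in Con-FMT, were lower than in HS (2 and 1 called without HS replicate 1, and 4 in Con-FMT without its replicate 3), beside 2145 and 1943 of all 10204 genes. The list medians of -0.15 and -0.14 lay close to those over all genes, -0.16 and -0.12. Among the lower targets was Cyp4a14 (-3.17 in A10-FMT, adjusted p = 0.0228, and -3.03 in Con-FMT, adjusted p = 0.0260). Its lowest HS library (11.44 RPKM) lay below the highest library of either transplant group (20.75 RPKM with A10-FMT, 18.19 RPKM with Con-FMT). Angptl4 also overlapped HS after both transplants. It was not called in A10-FMT, and was called higher in Con-FMT (0.70, adjusted p = 0.0470), a call lost in 20 of 29 alternatives.

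Among genes that insulin and SREBP1 induce, 5 of 12 tested fell in HS and 0 rose (median -0.75 against 0.14), and Scd1, the stearoyl-CoA desaturase, fell from 744 ± 69.6 to 43.1 ± 28.3 RPKM (log2 change -4.30, adjusted p = 0.00110). Thrsp, a lipogenic gene, gave -3.03 (adjusted p = 0.00814) and Acss2, an acetyl-CoA synthetase, gave -1.81 (adjusted p = 0.00485). Against A10, 10 of the 12 were lower in HS+A10 and 0 higher (median -1.19 against 0.04), beside 743 and 1388 of all 10204 genes. Thrsp was higher than HS after both transplants (3.93, adjusted p = 0.00159, and 3.39, adjusted p = 0.00243), while Scd1 was not called in either (-1.03, adjusted p = 0.267, and -0.98, adjusted p = 0.310).

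**Figure D3:**
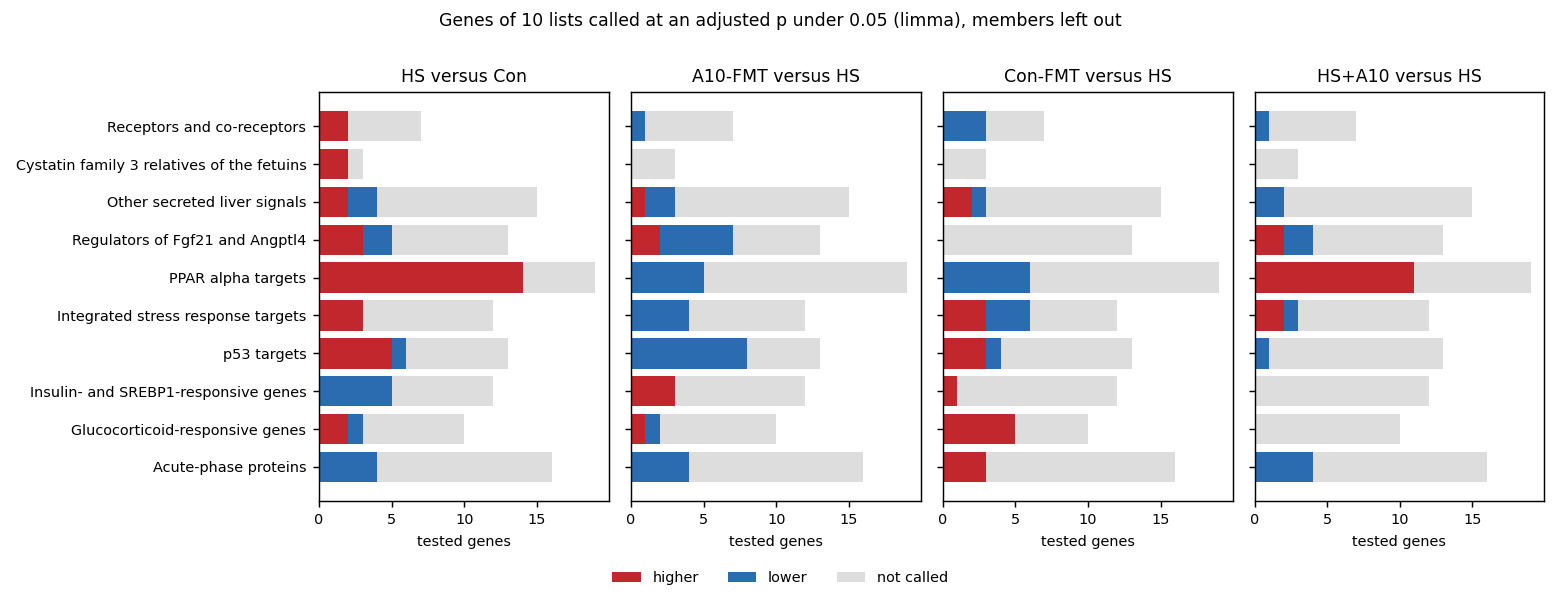
Number of tested genes (x axis) in each of 10 gene lists (y axis) that were called higher (red), called lower (blue) or not called (grey) at an adjusted p under 0.05, in 4 comparisons. In HS versus Con 14 of 19 PPAR alpha targets were higher, and in A10-FMT versus HS 8 of 13 p53 targets were lower.

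The p53 target list, with Gdf15 left out, was read in the same comparisons as Gdf15. Of 13 tested genes, 5 rose and 1 fell in HS against Con (median 0.58 against 0.14 over all genes). In A10-FMT 8 were lower than in HS (median -0.58 against -0.16, 5 called under quantile normalization), beside 2145 of all 10204 genes. Against Con-FMT 8 were lower in A10-FMT (-0.54 against -0.03), beside 1228 of all genes. Against HS, Con-FMT gave 3 higher and 1 lower, and 7 called without Con-FMT replicate 3. Cdkn1a, the cell cycle inhibitor p21, averaged 11.8 ± 0.45 RPKM (SD, n = 3) in Con and 28.1 ± 7.70 RPKM in HS. Its means after transplantation were 3.43 ± 0.48 RPKM with A10-FMT and 20.02 ± 9.37 RPKM with Con-FMT. It rose by 1.15 in HS (adjusted p = 0.0193) and was lower in A10-FMT than in HS (-2.69, adjusted p = 1.85e-04) and Con-FMT (-2.16, adjusted p = 3.22e-04). Phlda3, an AKT inhibitor (2.11, adjusted p = 8.15e-05), Ccng1, cyclin G1 (1.04, adjusted p = 4.37e-05), and Zmat3, an RNA-binding protein (0.70, adjusted p = 4.89e-04), also rose in HS, and each was lower in A10-FMT than in HS (-1.26, -0.58 and -0.63). Like Cdkn1a, they were picked by their rise in HS. Both comparisons share the HS libraries, so lower values in A10-FMT than in HS were favoured in advance. Cdkn1a was also lower in HS+A10 than in HS (-1.14, adjusted p = 0.0367) and gave 0.33 in HS+A10 against A10 (adjusted p = 0.482), where Gdf15 was called higher. Phlda3 was lower in Con-FMT than in HS (-0.68, adjusted p = 0.0435), where Gdf15 was not called. Whether these genes differ from Gdf15 was not tested.

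**Figure D4:**
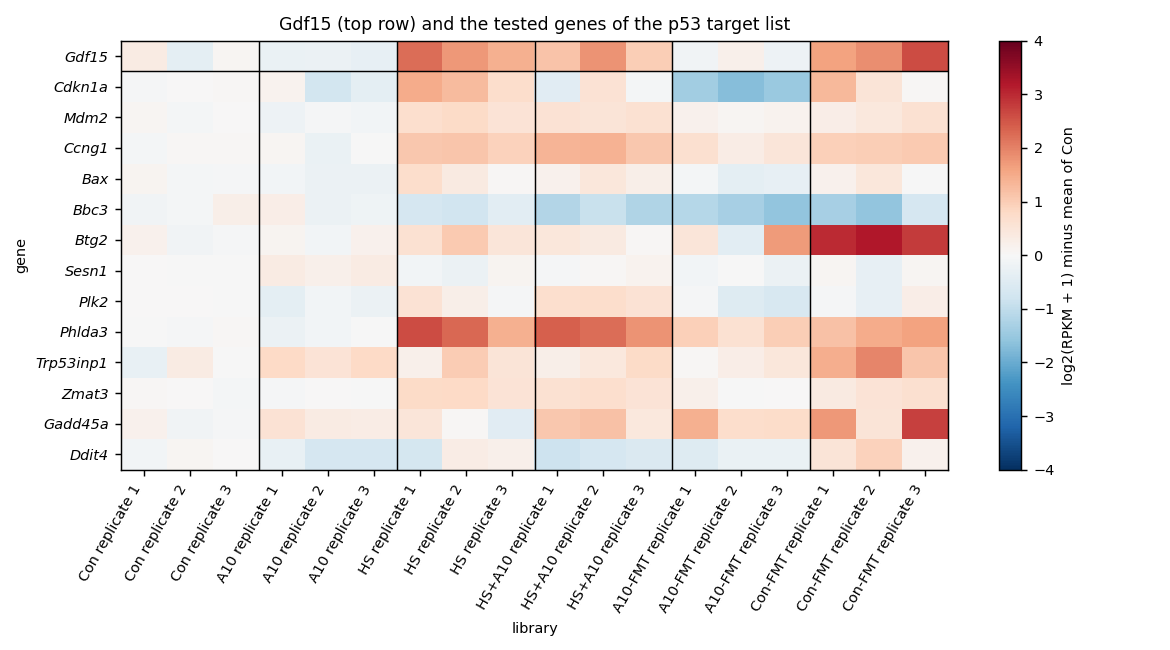
log2(RPKM + 1) minus the mean of Con, as colour, for Gdf15 (top row) and the 13 tested p53 targets (other rows) in each of the 18 libraries (columns). Gdf15 was raised in the HS, HS+A10 and Con-FMT columns, and Cdkn1a was below Con in all 3 A10-FMT columns (3.43 ± 0.48 RPKM on average against 11.8 ± 0.45).

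The integrated stress response list shares the factor ATF4 with Fgf21 and Gdf15. Of 12 tested targets 3 rose and 0 fell in HS (median 0.49 against 0.14 over all genes, of which 15.9% were called higher), Trib3 (1.31, adjusted p = 0.00267), Sesn2 (0.62, adjusted p = 0.00857) and Vldlr (0.62, adjusted p = 0.0264). In A10-FMT 4 were lower than in HS and 4 lower than in Con-FMT, beside 2145 and 1228 of all 10204 genes. Con-FMT had 3 higher and 3 lower than HS, beside 470 and 1943 of all genes. Trib3 was highest in HS+A10, at 16.8 ± 2.66 RPKM against 5.27 ± 1.73 in HS (1.53, adjusted p = 0.00382), where Fgf21 read 1.15 to 3.55 RPKM.

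Glucocorticoid-responsive and acute-phase genes separated the transplants. Of 10 glucocorticoid-responsive genes, 2 rose, Pck1 (1.72, adjusted p = 3.03e-06) and Tat (0.79, adjusted p = 0.0264), and 1 fell, Mt2 (-2.74, adjusted p = 0.0426), in HS. In Con-FMT 5 were higher than in HS, Mt2 by 6.11 (adjusted p = 3.00e-04), and 6 were lower in A10-FMT than in Con-FMT, and without Con-FMT replicate 3 these comparisons also called 5 and 6. Of all 10204 genes, 470 and 1228 were called in these directions. Of 16 acute-phase genes, 4 fell and 0 rose in HS (7 called without HS replicate 1, and 1 without Con and A10 replicate 3), Saa2 (-4.76, adjusted p = 0.00288), Saa1 (-3.58, adjusted p = 0.0138), Saa3 (-3.06, adjusted p = 0.0127) and Apcs (-1.65, adjusted p = 0.0190). Con itself was widely spread, at 300 to 7018 RPKM for Saa2, 296 to 6422 for Saa1 and 22.6 to 344 for Saa3. Saa1 libraries of Con and HS (67.3 to 354 RPKM) overlapped. Mt2 was also spread in Con (23.35 to 311 RPKM). In A10-FMT 11 of the 16 were lower than in Con-FMT (7 without Con-FMT replicate 3, and 5 without Con and A10 replicate 3 as well), where Gdf15 and Angptl4 were also lower. Whether these inflammatory and hormonal responses bear on the hepatokines was not tested.

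The genes with the most similar profile over the 18 libraries, by Pearson correlation of log2(RPKM + 1), were taken as a description. They share the libraries and group differences. For Gdf15 these were Ibtk (r = 0.92), the apoptosis nuclease Aen (0.91) and Zmat3 (0.91), the last of which is also in the p53 list. For Angptl4 they were Apoa5 (0.90), a triglyceride regulator, Tdo2 (0.89) and Josd1 (0.88). For Angptl8 they were Pura (0.91) and the ribosomal protein genes Rpl36a (0.89) and Rps24 (0.89). For Angptl6 they were Dpys (0.90), Tex264 (0.89) and Hdac11 (0.89), and for Lect2 Fdx1 (0.87), Akr1c6 (0.85) and Tnfsfm13 (0.83). For Fetub they were Ugt1a6b (0.87), Serpina11 (0.84) and Pwwp2a (0.82), and for Ahsg Zbtb11, Rasgef1b and Ptch1 (0.82 each). Fgf21 had the weakest nearest profiles, Thoc7 (0.77), Polr2e (0.76) and Slc25a30 (0.75). Angptl4 and Angptl8 ran in opposite directions over the libraries (r = -0.67), and Fgf21 and Angptl4 had r = 0.48.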

How the data were processed

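Liver mRNA was selected with oligo(dT), copied with random hexamers and sequenced by the authors, who mapped reads to reference genes with SOAPaligner. The submitters' processing notes name Bowtie 0.12.2 and mm10. The deposited RPKM values, scaled by the authors to gene length and mapped reads, have 2 decimals, and no counts were used. Total read numbers were estimated from steps between low values, assuming GENCODE M21 transcript lengths, and gave about 13590000 to 14650000 reads, so low values carry counting error. Groups were taken from the labels. The study's DEGseq test was not used because the values are RPKM.

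In R 4.3.3 with limma 3.58.1, log2(RPKM + 1) was fitted for the 10204 genes averaging 1 RPKM or more in the 18 libraries (all 8 members passed), with a mean for each of the 6 groups and a trended prior variance. Tests were two-sided with Benjamini-Hochberg adjustment over all tested genes, called at an adjusted p under 0.05. Fold changes on this scale understate those of low genes. A simulated self-test on these genes was passed. Its errors were independent and normal with each gene's own spread, as the model assumes. A pass was therefore likely in advance and checks the computation, not the calls in these data. The simulation held no libraries that stand apart and no shift in scaling, so it does not bear on those. Named genes are all members, up to 4 genes of each of 12 lists with the largest change called in HS versus Con (or the largest where fewer than 2 were called), fixed partners (Klb, Fgfr4, Lpl, Ppara and Insr) and the 3 nearest profiles per member. Some genes that this rule names, and the counts of the lists that rest on them, are not reported here. The members and lists were chosen with earlier results of these data known. The alternatives changed the pseudocount, filter, scaling, libraries in the fit, variance trend and replicate block. Leaving out the libraries that stand apart was chosen after seeing the data. Figures were drawn with Python 3.11.15 and matplotlib 3.10.9.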

Additional observations from a re-analysis of the deposited data

Results flagged for a closer look

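Gdf15 responded differently to the transplants, since its change from HS in A10-FMT minus that in Con-FMT was -2.06 on the log2 scale (adjusted p = 1.69e-04), and all 3 A10-FMT libraries lay below all 3 Con-FMT libraries. Angptl4 differed in the same direction by -0.74 (adjusted p = 0.0433), a difference not past the threshold without Con-FMT replicate 3 (adjusted p = 0.154). Con-FMT replicate 3 held pancreatic acinar marker mRNAs summing to 22811 RPKM, 3.25% of its total, where no other library exceeded 50.4 RPKM. Its part in the members' values was not tested. Without it, Gdf15 gave -1.77 and Angptl4 -0.56 in A10-FMT versus Con-FMT.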

How the results depend on the processing

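Members called in A10-FMT versus Con-FMT numbered 1 (Gdf15) in place of 2 with no filter on low values, under quantile normalization, with libraries scaled to the same median, with the replicate number as a block, with only the compared groups or the 12 libraries of Con, HS, A10-FMT and Con-FMT in the fit, and without Con and A10 replicate 3, with or without Con-FMT replicate 3. Over all genes these fits called between 687 and 2260, against 1914 in the main fit. With only the compared groups in the fit, HS versus Con called 2, Con-FMT versus HS 1 and A10 versus Con 2. Over all genes these fits called 702, 777 and 40, against 1809, 2413 and 7 in the main fit. Without Con, A10 and Con-FMT replicate 3, HS versus Con called 2 (722 of all genes) and HS+A10 versus A10 called 2 (1203). Without only Con and A10 replicate 3, HS+A10 versus A10 called 2 (1164 of all genes) and HS versus Con called 3 (700). Leaving out each library in turn gave 3 to 5 members in HS versus Con, 2 to 3 in A10-FMT versus HS and in Con-FMT versus HS, 1 to 2 in A10-FMT versus Con-FMT, 0 to 1 in HS+A10 versus HS and in A10 versus Con, 2 to 5 in HS+A10 versus A10, 0 in the interaction and 6 to 7 in the F test. Over all genes these fits called 847 to 1965 in HS versus Con, 1297 to 2586 in A10-FMT versus HS and 1758 to 2504 in Con-FMT versus HS. They called 1178 to 2013 in A10-FMT versus Con-FMT, 152 to 1233 in HS+A10 versus HS and 0 to 72 in A10 versus Con. In HS+A10 versus A10 they called 1325 to 2215, and in the interaction 0 to 118.

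Signs turned for differences near 0. Under quantile normalization these were Insr in HS versus Con (-0.064), Angptl4 (0.12) and Ahsg (-0.21) in A10-FMT versus HS, Angptl6 in Con-FMT versus HS (0.0095), Fetub in A10-FMT versus Con-FMT (0.0086), Ahsg in HS+A10 versus A10 (0.14) and the Angptl8 interaction (0.017). Under median scaling they were Insr (-0.069), Angptl4 in A10-FMT versus HS (0.15), Angptl6 in Con-FMT versus HS (0.012) and Fetub in A10 versus Con (-0.0063). Without the libraries that stand apart they were the Angptl6 interaction (-0.018), Gdf15 in Con-FMT versus HS (-0.054) and Fgf21 in A10-FMT versus Con-FMT (-0.30). With a library left out the ranges crossing 0 were -0.089 to 0.029 for Lect2 in HS versus Con, -0.39 to 0.25 for Angptl4, -0.17 to 0.28 for Angptl8 and -0.068 to 0.060 for Ahsg in A10-FMT versus HS, -0.29 to 0.041 for Angptl6 and -0.054 to 0.45 for Gdf15 in Con-FMT versus HS, -0.30 to 0.39 for Fgf21 in A10-FMT versus Con-FMT, -0.0066 to 0.34 for Angptl6 in A10 versus Con, -0.40 to 0.14 for Fgf21 and -0.041 to 0.21 for Lect2 in HS+A10 versus A10, and, for the interaction, -0.056 to 0.29 (Angptl6), -0.42 to 0.26 (Angptl8) and -0.0016 to 0.25 (Lect2). The cause was not tested.

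Same-numbered libraries deviated together (r over 0.1) in 12 of 45 pairs (median r = 0.0067). Pairs with different numbers were not read beside them, so these values cannot tell whether the numbers pair the samples. The replicate block gave 1695 genes in HS versus Con against 1809 without it, and ended no member's call but those of Angptl4 in Con-FMT versus HS (adjusted p = 0.0603) and A10-FMT versus Con-FMT (adjusted p = 0.0568). Genes called over the table in HS versus Con were 876 under quantile normalization, 884 under median scaling, 702 in the fit of its own groups, 996 in that of 12 libraries, and 700 or 722 without the libraries that stand apart. A mean of at least 5 RPKM left Fgf21 out. Low read numbers limit Fgf21 most.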
